A study of Mus musculus with 27 samples.

Results

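The antigen receptor variable gene segments form the part of an antibody or T cell receptor chain that meets the antigen. They were taken as every probe set of the deposited table whose mapped symbol begins with Igkv, Ighv, Iglv, Trav or Trbv. This gave 98 of 21225 probe sets, of which 20239 carry a gene symbol. The 70 immunoglobulin segments comprised 44 of the kappa light chain (Igkv), 23 of the heavy chain (Ighv) and 3 of the lambda light chain (Iglv). The 28 T cell receptor segments comprised 26 of the alpha chain (Trav) and 2 of the beta chain (Trbv1 and Trbv4). All 98 entered the fits, with no filter on level.

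RNA of the right lung came from 27 female mice aged 11 weeks, 3 of each of 9 inbred strains, and each mouse had its own array. A/J, C57BL/6J and DBA/2J are labelled with increased severity and increased frequency of spontaneous lung adenoma. For C57L/J, C3H/HeJ, BALB/cJ and 129S1/SvlmJ the label gives increased severity with decreased frequency, and for KK/HlJ and MRL/MpJ both are decreased. The class describes the strain and not the individual mouse.

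In a B or T lymphocyte a variable segment is joined by DNA rearrangement to smaller joining segments, and the cell and its progeny then transcribe mainly that rearranged chain. A plasma cell, the antibody-secreting stage of the B cell, holds very large amounts of immunoglobulin mRNA. The level of a segment in whole tissue therefore depends on which clones are present as well as on how many lymphocytes there are. In whole lung RNA fewer cells of a type and less RNA per cell cannot be told apart. Segments of a subgroup, the number before the dash in the symbol, are close in sequence, so the assignment of signal to single members is uncertain, as is the match of each strain's own alleles to the probes. Neither was tested.

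Values are log2 signal as deposited, with array medians of 6.24 to 6.37, and a difference is a log2 fold change. Between mice of a strain the arrays correlated at 0.984 to 0.997 across probe sets, and for 26 of 27 the best-correlated array came from a mouse of the same strain. The lung markers were bright on every strain, with a highest member at 13.1 to 13.3. The arrays labelled C57L/J had H2-Ea signals of 11.07, 11.19 and 11.23, although C57L/J is known as an H2-b strain, a haplotype in which this MHC class II gene is silent, and although C57BL/6J, which has that haplotype, averaged 4.79. The counts by F test, in strain pairs and of higher segments, and some single results, are therefore also given without them. Other results keep these arrays. C3H/HeJ replicate 2 stood apart in 6 skeletal muscle markers, with a median 3.88 above the all-array mean, and in 5 adipocyte markers, with 2.09. The adipocyte median was also high in C57L/J replicate 3, at 1.26, beside 0.06 and -0.37 in its strain mates. The serial numbers in the labels' array names group the mice by strain, with MRL/MpJ replicate 3 apart. An effect of that order cannot be told apart from one of strain. In MRL/MpJ replicate 3 it cannot be told apart from a difference between mice.

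The log2 signals of the 70 immunoglobulin segments ran from 1.92 to 10.03. As a mark of background in female tissue, 3 Y-linked genes (Eif2s3y, Kdm5d and Uty) reached at most 3.93, and Sry, also Y-linked, reached 5.56. On all arrays 17 immunoglobulin and 11 T cell receptor segments stayed at or below 3.93. By contrast 21 immunoglobulin and 10 T cell receptor segments were above it on every array, and 6 and 5 were above 5.56 on every array. Where the lower side of a difference lies at or below 3.93, the signal there may be background, so the log2 difference is given without a fold.

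Across the 9 strains, 23 of 70 immunoglobulin segments (32.9%) differed by limma's F test at a Benjamini-Hochberg adjusted p under 0.05, beside 28.9% of all named probe sets. The segments were thus called about as often as other genes. Of the called segments 16 of 44 were kappa, 4 of 23 heavy chain and 3 of 3 lambda. Of the 28 T cell receptor segments 0 were called, with 3 at an unadjusted p under 0.05. Without the arrays labelled C57L/J the immunoglobulin count was 14, of which 13 were among the 23, beside 27% of all probe sets. Whichever single array was left out, 11 of the 23 kept their call. Among the 8 with the smallest p, Igkv10-94, Igkv19-93, Igkv4-86 and Ighv7-2 missed the threshold without the arrays labelled C57L/J (adjusted p = 0.674, 0.24, 0.288 and 0.11). The smallest adjusted p of a T cell receptor segment was 0.0515, for Trav1, followed by Trav19 (0.0748), Trav7-6 (0.102), Trav13-3 (0.133), Trav13-5 (0.136), Trav7-1 (0.158), Trav18 (0.178) and Trav8n-2 (0.229).

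Large differences were more frequent. A call in any of the 36 strain pairs needed a log2 difference of at least 1 as well as an adjusted p under 0.05. At least 1 pair called 27 of 70 immunoglobulin segments (38.6%), beside 4.27% of all named probe sets, and 0 of 28 T cell receptor segments, where 1 passed at an unadjusted p. The 27 were 20 kappa, 4 heavy and 3 lambda segments. Without the arrays labelled C57L/J there were 15, from fewer strain pairs, and the share of all probe sets was not computed for that fit. The highest and lowest strain means lay at least 1 apart for 35 of 70 immunoglobulin segments, for 1 of 28 T cell receptor segments and for 944 of all probe sets. The pair of C57L/J and KK/HlJ called most immunoglobulin segments, 17, beside 0.983% of all probe sets. C57L/J and MRL/MpJ followed with 12, beside 0.677%.

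**Figure D1:**
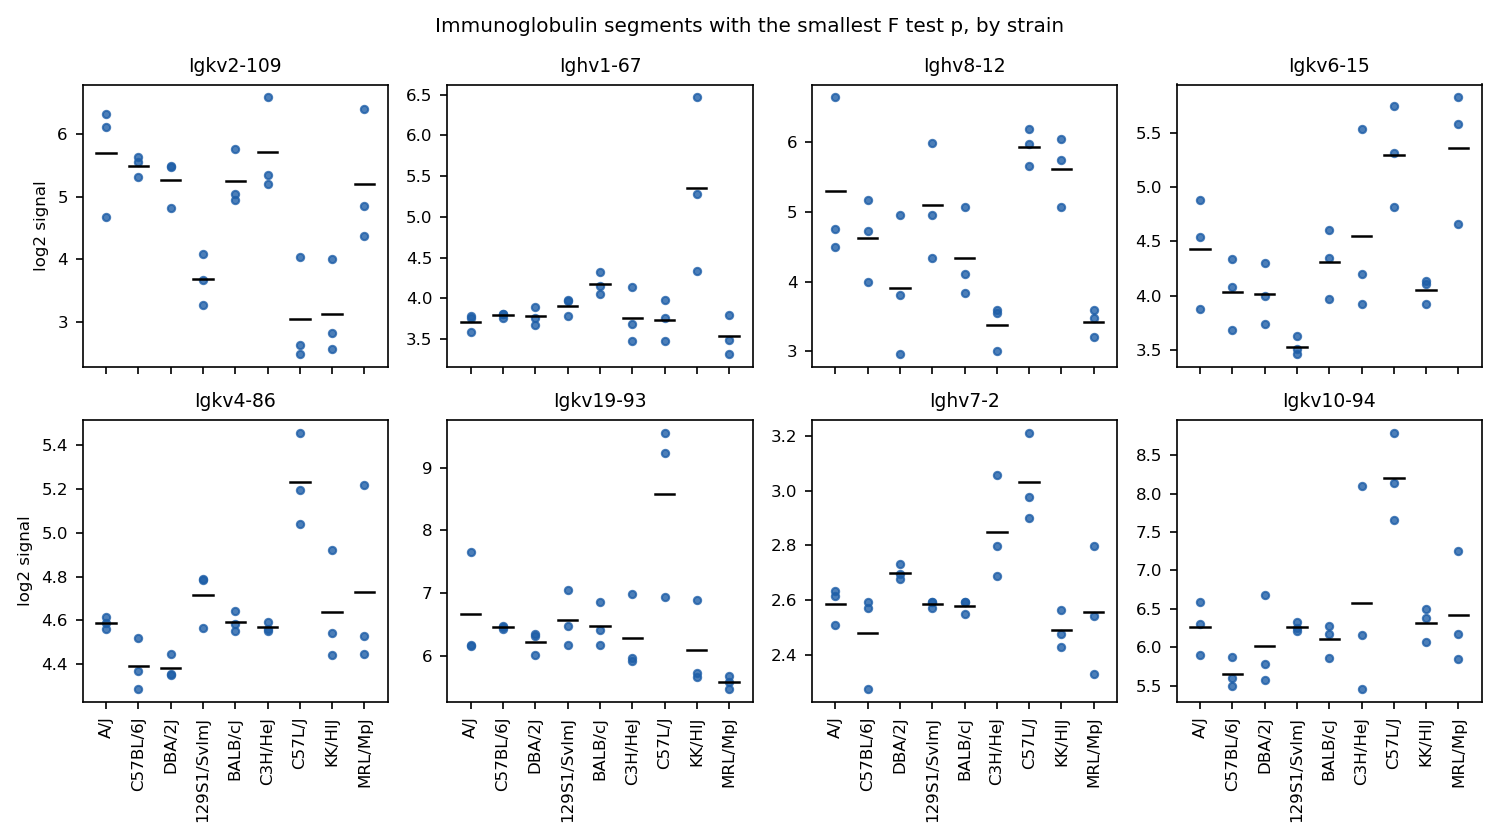
Log2 signal (vertical axis, a separate range in each panel) of the 8 immunoglobulin segments with the smallest F test p, by strain; points are the 3 mice of a strain and lines their mean. Igkv2-109 is low in 129S1/SvlmJ, C57L/J and KK/HlJ, Ighv1-67 is high in KK/HlJ, and Igkv19-93 and Igkv10-94 are high in the arrays labelled C57L/J.

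Igkv2-109, a kappa segment, was called in 15 pairs, the most of any segment. Its signal was 4.03, 2.63 and 2.48 in C57L/J, 2.55, 4.0 and 2.82 in KK/HlJ, and 3.27, 4.09 and 3.67 in 129S1/SvlmJ. In the other 6 strains the means ran from 5.21 in MRL/MpJ to 5.71 in C3H/HeJ, and the single mice from 4.37 to 6.59. The mice of the low strains were all below those of the other 6. The adjusted p of the F test was 0.000177. The difference from the other 8 strains was -1.88 ± 0.38 (SE) in C57L/J (adjusted p = 0.00244) and -1.80 ± 0.38 in KK/HlJ (adjusted p = 0.00327). Without KK/HlJ replicate 1 the difference in KK/HlJ was -1.51 (adjusted p = 0.0555). The order of the remaining 6 strain means, 5.21 to 5.71, lies within the spread between mice.

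The arrays labelled C57L/J had the most segments set apart from the mean of the other 8 strains. Here 18 of 70 immunoglobulin segments (25.7%) were higher, beside 3.69% of all named probe sets, and 2 were lower, Igkv2-109 and Igkv9-120, beside 2.94%. The median over the 70 was 0.32 (0.21 without replicate 2 and 0.20 without replicate 3) and over all named probe sets -0.0013, while the 28 T cell receptor segments had a median of -0.07. Of the 18, 15 were kappa and 3 heavy chain segments (Ighv7-2, Ighv8-8 and Ighv8-12). Their differences ran from 0.43 to 2.29.

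Igkv8-24 read 3.23, 5.50 and 6.75 in C57L/J, against a lowest, median and highest value of 2.32, 2.79 and 4.48 in the other 24 mice. Replicates 2 and 3 were above every other mouse and replicate 1 was not. The difference was 2.29 ± 0.40 (SE; adjusted p = 0.0005), from a median in the other mice within the range of the Y-linked genes, and 1.5 (adjusted p = 0.0251) without replicate 3. The SE rests on a spread shared by all strains. The SD of the 3 C57L/J mice themselves was wider, 1.78 for Igkv8-24 and 1.42 for Igkv19-93. Igkv19-93 read 6.95, 9.23 and 9.56 in C57L/J, against 5.47, 6.25 and 7.65 (lowest, median, highest) in the others, a difference of 2.28 ± 0.36 (4.87-fold, adjusted p = 0.000176). Igkv10-94, next to Igkv19-93 among the measured segments, read 8.14, 7.66 and 8.80 in C57L/J, against 5.45, 6.18 and 8.10 in the others. It was 2.00 ± 0.33 higher (4.0-fold, adjusted p = 0.000302), and all 3 mice were above every other mouse but C3H/HeJ replicate 2. Igkv8-21 showed the widest scatter of the 18, with 4.77, 8.88 and 7.63 in C57L/J, against 3.61, 4.96 and 5.95 in the others. Its difference of 2.14 (adjusted p = 0.00466) was 1.25 (adjusted p = 0.129) without replicate 2, and the call was also missed without replicate 3.

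The 18 segments did not rise evenly in the 3 mice. Replicate 2 was the highest of the 3 for 14 of the 18 and above all 24 other mice for 13. Replicate 1 was the lowest for 13 and above all others for 1, and replicate 3 was above all others for 7. For 0 of the 18 were all 3 C57L/J mice above all 24 others. The 18 were picked by their C57L/J values, so the counts above the other mice follow in part from that choice. The same counts over all 70 segments are not given. Without replicate 2 the count of higher segments was 7, beside 3.16% of all probe sets, and 6 of the 18 remained: Igkv4-86, Igkv6-32, Igkv8-24, Igkv10-94, Igkv19-93 and Ighv7-2. These 6 kept their call whichever single array was left out. Ighv7-2 was dim. It read 2.90, 3.21 and 2.98 in C57L/J, against 2.28, 2.59 and 3.06 in the others, within the range of the Y-linked genes. Igkv4-86 read 5.04, 5.46 and 5.20 in C57L/J, against 4.29, 4.56 and 5.22 in the others, all under the 5.56 that Sry reached. It was 0.66 ± 0.11 higher (adjusted p = 0.000289). Igkv6-32 was 1.32 ± 0.23 higher (adjusted p = 0.000533), which was 0.86 (adjusted p = 0.0245) without replicate 2.

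Genes that go with antibody secretion were measured on the same arrays. Jchain, which links IgA and IgM units into polymers, read 7.12, 9.10 and 8.34 in C57L/J and was 2.37 higher than in the other strains (adjusted p = 0.000336). Igha, the IgA constant region, read 10.96, 12.43 and 11.63 and was 2.64 higher (adjusted p = 1.62e-07). Both were lowest in replicate 1 and highest in replicate 2. Of 10 constant region genes 3 rose in C57L/J, namely Igha, Ighg1 (2.36) and Ighg3 (1.58), and 0 fell. Ighg1, of the IgG1 heavy chain, was highest in replicate 3 instead, at 10.83 beside 6.18 and 8.10. Of 14 B cell markers 0 were called in either direction in C57L/J (median difference 0.05), and of 10 plasma cell markers 1 was called, Jchain (list median 0.10). Their part in the segment result was not tested.

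**Figure D2:**
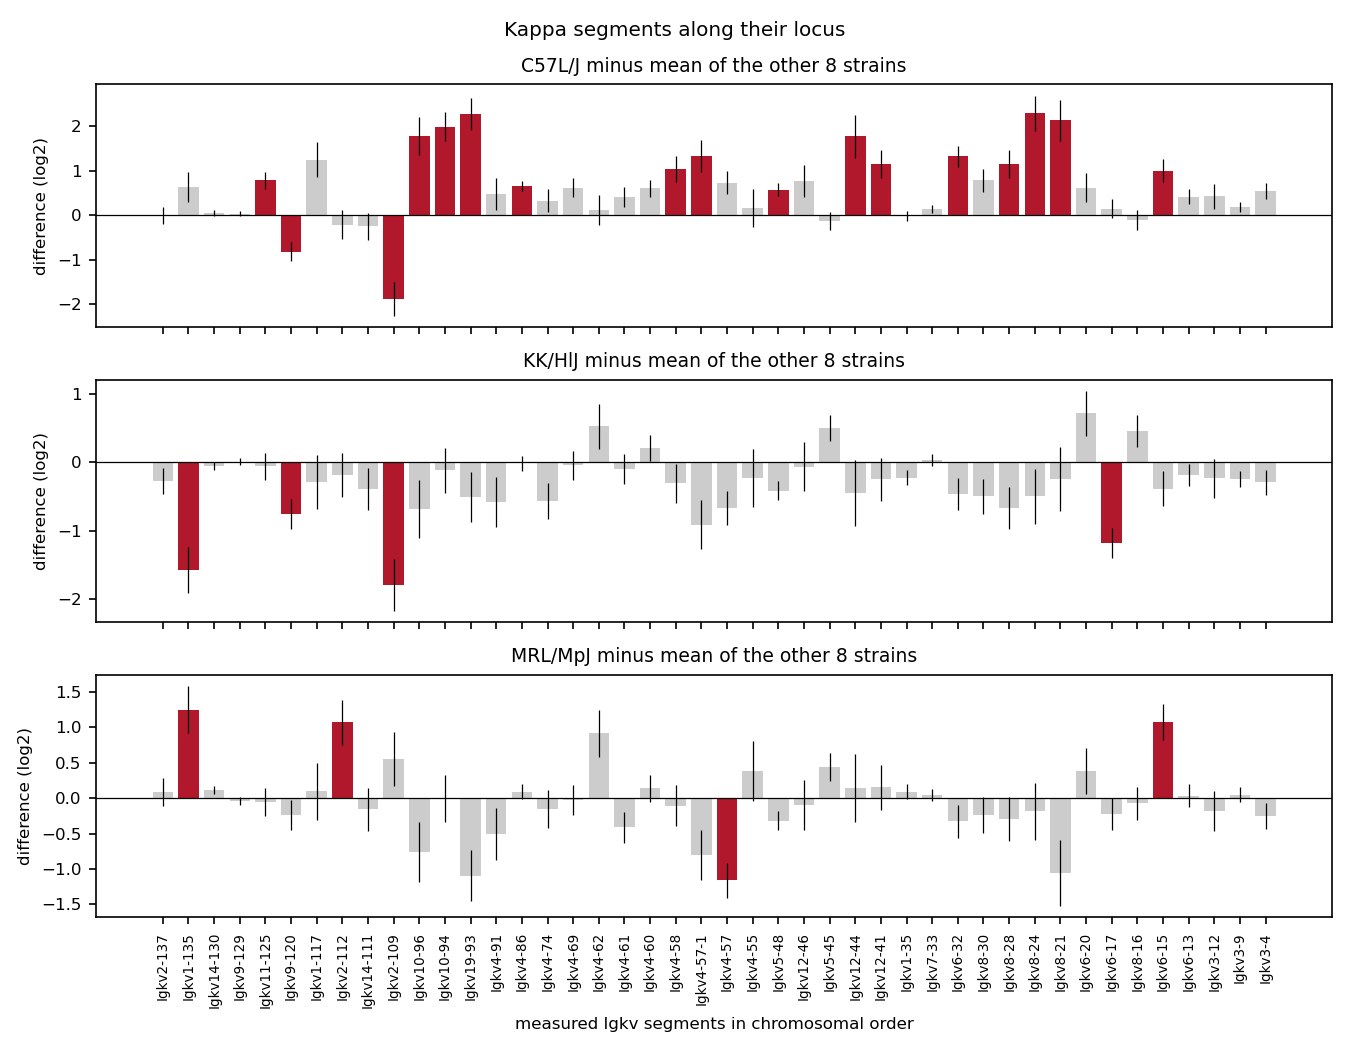
Difference (log2) of a strain from the mean of the other 8 for the 44 measured kappa segments, in their order along the chromosome, for C57L/J, KK/HlJ and MRL/MpJ; bars are differences, lines ± 1 SE, and red bars passed the adjusted p. Red bars in the arrays labelled C57L/J occur along the whole order, and Igkv1-135 is low in KK/HlJ and high in MRL/MpJ.

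The kappa segments higher in C57L/J lay along the whole measured order, 7 among the first 22 segments and 8 among the last 22. By subgroup they included 3 of 5 Igkv8, 3 of 11 Igkv4, 2 of 3 Igkv12, 2 of 5 Igkv6 and both Igkv10 segments. Subgroups with 0 of 3 were Igkv1, Igkv2 and Igkv3.

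In KK/HlJ 5 of 70 immunoglobulin segments were lower than in the other 8 strains, beside 2.83% of all probe sets, and 2 were higher, beside 4.55%. The median over the 70 was -0.23, against 0.01 over all named probe sets. Iglv2, the variable segment of the lambda-2 light chain, read 3.48, 3.45 and 2.75 in KK/HlJ, against 4.45, 5.93 and 7.83 (lowest, median, highest) in the other 24 mice. All KK/HlJ mice were below all others. The difference was -2.72 ± 0.50 (adjusted p = 0.000811), with the KK/HlJ signals within the range of the Y-linked genes, and the call held whichever array was left out. The other 8 strain means ran from 5.17 to 6.58 with SDs of up to 1.39, so their order is not set by these data. The other lambda segments also had their lowest strain mean in KK/HlJ but missed the test against the other 8. Iglv1 averaged 6.54 in KK/HlJ, against 7.58 in the others (adjusted p = 0.076), and Iglv3 5.10 against 5.87 (adjusted p = 0.0945). Among constant regions, Iglc2 read 7.0, 6.74 and 7.18 in KK/HlJ and was lower by -0.89 (adjusted p = 0.0176), and Iglc1 by -0.68 (adjusted p = 0.103).

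Among kappa segments, Igkv6-17 read 3.56, 3.58 and 3.46 in KK/HlJ, against 3.83, 4.71 and 5.35 in the others. The groups did not overlap, and the difference was -1.18 ± 0.22 (adjusted p = 0.000945), again with KK/HlJ signals in that range. Igkv1-135 read 7.05, 5.63 and 6.44 in KK/HlJ, against 7.06, 7.82 and 10.03 in the others, again without overlap, a difference of -1.58 ± 0.33 (adjusted p = 0.00306) that was -1.21 (adjusted p = 0.0801) without KK/HlJ replicate 2. Igkv2-109 and Igkv9-120 (-0.76, adjusted p = 0.0319) were low in KK/HlJ as in C57L/J. For Igkv9-120 both calls were lost without a mouse of the strain itself (adjusted p = 0.209 without KK/HlJ replicate 3 and 0.229 without C57L/J replicate 1, and likewise without KK/HlJ replicate 1 and C57L/J replicate 2). The count of 5 was 3 without KK/HlJ replicate 1 and 8 without C57L/J replicate 1. For these 2 fits the share of all probe sets was not computed.

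The heavy chain segment Ighv1-67 was higher in KK/HlJ. It read 4.33, 6.47 and 5.28 there, against 3.32, 3.79 and 4.33 in the other 24 mice. Every KK/HlJ mouse was above every other mouse, though replicate 1 by less than the rounding shown. The difference was 1.56 ± 0.22 (adjusted p = 3.74e-05) and remained called with any array left out, at 1.01 without replicate 2. The second, Ighv1-43, read 3.29, 2.99 and 2.63 in KK/HlJ, against 2.38, 2.63 and 2.85 in the others. Its difference of 0.35 (adjusted p = 0.0265) was 0.19 (adjusted p = 0.38) without replicate 1, and it also missed the threshold without replicate 2.

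Among the 23 heavy chain segments, Ighv8-12 separated most strain pairs, 10. It read 5.65, 6.18 and 5.97 in C57L/J and 5.74, 6.04 and 5.07 in KK/HlJ. It was low in C3H/HeJ, with 3.60, 3.55 and 3.01, and in MRL/MpJ, with 3.48, 3.20 and 3.59. These 2 pairs of strains did not overlap, while A/J (4.49 to 6.64) reached above the first pair and DBA/2J (2.96 to 4.95) below the second. Against the other 8 strains it was higher in C57L/J by 1.47 ± 0.38 (adjusted p = 0.0175) and lower in C3H/HeJ and MRL/MpJ by -1.39 and -1.35 (adjusted p = 0.0265 and 0.0217). Leaving out any mouse of the strain in question ended each of these calls (adjusted p = 0.0603 to 0.12 in C3H/HeJ and 0.0748 to 0.089 in MRL/MpJ). The differences were then -1.50 to -1.21 in C3H/HeJ and -1.44 to -1.24 in MRL/MpJ. In the fits without the arrays labelled C57L/J the adjusted p was 0.0703 in C3H/HeJ and 0.0581 in MRL/MpJ.

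In MRL/MpJ, a strain known as a background of autoimmune disease, 4 immunoglobulin segments were higher than in the other strains, beside 6.83% of all probe sets, and 2 were lower, beside 5.61%. Replicate 3, the array with a serial number apart from its strain mates, carried most of the higher calls. Ighv1-84 read 2.89, 3.36 and 7.69 in MRL/MpJ, against 2.27, 2.78 and 3.76 in the others. Replicates 1 and 2 lay within the range of the other strains. The difference of 1.84 (adjusted p = 0.0181) was 0.32 (adjusted p = 0.319) without replicate 3. Igkv2-112 read 4.72, 5.03 and 7.73, against 4.41, 4.77 and 5.05 in the others, and its difference of 1.07 (adjusted p = 0.032) was 0.12 without that mouse. Igkv1-135 read 8.48, 8.16 and 10.03, against 5.63, 7.65 and 9.26, a difference of 1.25 (adjusted p = 0.0158) that was 0.68 (adjusted p = 0.271) without it.

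Igkv6-15 was raised in more than a single mouse. It read 4.66, 5.83 and 5.58 in MRL/MpJ and 4.82, 5.75 and 5.32 in C57L/J, and 3.51, 3.63 and 3.46 in 129S1/SvlmJ. The 3 mice of 129S1/SvlmJ were below all 24 others, of which the lowest was 3.68. It was higher in MRL/MpJ by 1.08 ± 0.25 (adjusted p = 0.00697), higher in C57L/J by 1.01 (adjusted p = 0.0147) and lower in 129S1/SvlmJ by -0.97 (adjusted p = 0.0153). In 129S1/SvlmJ this was the only immunoglobulin call, 1 of 70, beside 6.43% of all probe sets, and it was lost without any 1 of its mice (adjusted p = 0.0614 to 0.0871). The difference in 129S1/SvlmJ was then -1.02 to -0.94. Leaving out replicate 2 ended the MRL/MpJ call (adjusted p = 0.0715), as it did that of C57L/J with its own replicate 2 left out (adjusted p = 0.149). Leaving out replicate 3 of the strain ended each of these calls too. Of 14 B cell markers 9 fell in 129S1/SvlmJ (list median -0.41) and 3 in MRL/MpJ (-0.27), which was not tested as a part of these differences.

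Igkv4-57 was lower in MRL/MpJ, at 4.79, 5.84 and 4.24 there against 5.17, 6.10 and 7.10 in the others. The difference was -1.16 ± 0.25 (2.23-fold lower, adjusted p = 0.00392), and -0.80 (adjusted p = 0.098) without replicate 3. Among constant region genes in MRL/MpJ, Ighg1, Ighg3 and Ighg2c, of IgG heavy chains, rose by 2.23, 1.54 and 0.84 (adjusted p = 0.00872, 0.0259 and 0.0276), and Ighd, of IgD, fell by 0.95 (adjusted p = 0.00885).

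C3H/HeJ had 2 higher segments, beside 4.18% of all probe sets, and 1 lower, Ighv8-12, beside 3.08%. Igkv4-91 read 4.98, 8.07 and 4.96 in C3H/HeJ, against 3.8, 4.17 and 5.75 in the others. Replicates 1 and 3 were above all other mice but a single C57L/J mouse. The difference of 1.74 (adjusted p = 0.00453) was 0.70 (adjusted p = 0.0645) without replicate 2, the array with raised muscle and adipocyte markers. Ighv13-2 (0.37, adjusted p = 0.0437) had a difference of 0.18 (adjusted p = 0.418) without replicate 1 and lost its call in 16 of 27 fits with an array left out. A/J had 0 lower segments, beside 3.75% of all probe sets, and 1 higher segment, Ighv1-58, beside 1.96%, with 2.55, 2.83 and 2.65 in A/J against 2.22, 2.42 and 2.57 in the others. Its difference of 0.26 (adjusted p = 0.0103) lies within the background range and was 0.18 (adjusted p = 0.22) without replicate 2. C57BL/6J, DBA/2J and BALB/cJ had 0 immunoglobulin calls in limma's test. Of all named probe sets 4.06% were higher and 4.11% lower in C57BL/6J, 2.87% and 1.94% in DBA/2J, and 2.48% and 3.01% in BALB/cJ. At an unadjusted p under 0.05 there were 2 higher and 6 lower in C57BL/6J, beside 8.37% and 14.9% of all probe sets. There were 1 and 4 in DBA/2J, beside 8.53% and 7.63%, and 3 and 1 in BALB/cJ, beside 7.86% and 7.46%.

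**Figure D3:**
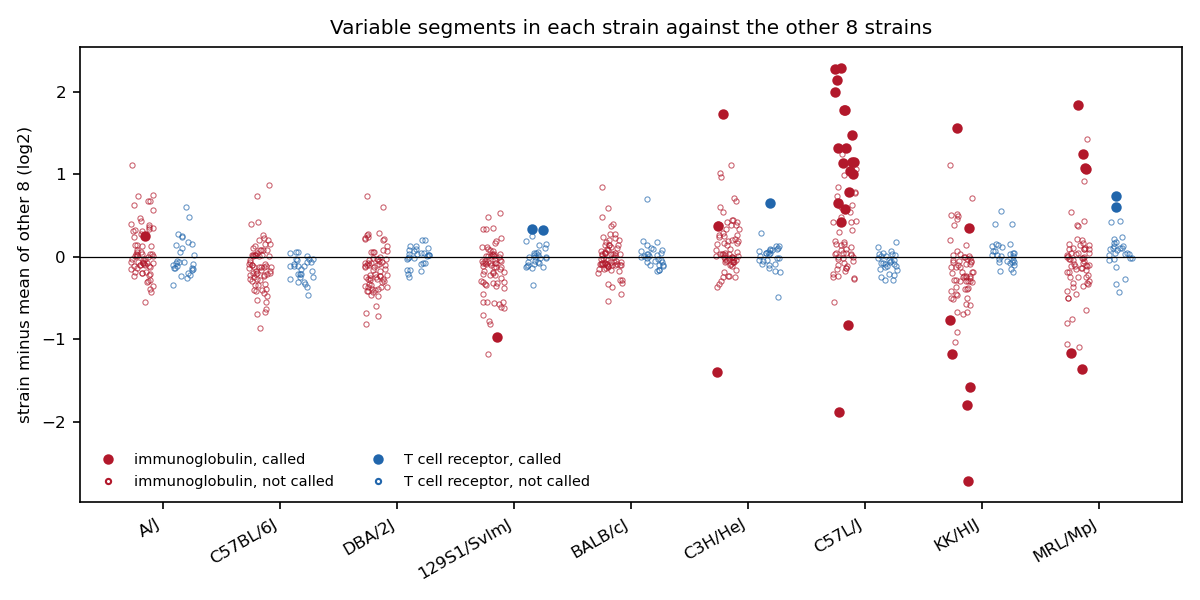
Difference (log2) of each strain from the mean of the other 8 for the 70 immunoglobulin segments (red, left) and the 28 T cell receptor segments (blue, right); each point is a segment and filled points passed the adjusted p. The immunoglobulin points of C57L/J reach 2.29 and those of KK/HlJ -2.72, while the T cell receptor points stay between -0.48 and 0.74.

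Over all strains 38 such immunoglobulin differences were called, 27 higher and 11 lower. Of these 10 kept their call in every fit with an array left out. They were the 6 higher in C57L/J, Igkv2-109 lower in C57L/J, and Ighv1-67, Igkv6-17 and Iglv2 in KK/HlJ. By strain, the share of immunoglobulin segments exceeded that of all probe sets only for higher calls in C57L/J and lower calls in KK/HlJ. These shares were 25.7% beside 3.69% and 7.14% beside 2.83%. A share of all probe sets was not computed for the 38 or the 10.

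T cell receptor segments varied over a narrower range. Their differences from the other 8 strains ran from -0.48 to 0.74, and 5 were called, all higher. In MRL/MpJ 2 of 28 (7.14%) were higher, beside 6.83% of all probe sets. Trav7-6 read 4.34, 3.19 and 4.01 in MRL/MpJ, against 2.77, 3.06 and 3.67 in the others. Replicates 1 and 3 were above all other mice and replicate 2 was within their range, and the difference was 0.74 ± 0.18 (adjusted p = 0.00885). It was 0.49 (adjusted p = 0.143) without replicate 1 and 0.66 (adjusted p = 0.0839) without replicate 3. Trav13-3 read 7.47, 7.42 and 8.50 in MRL/MpJ, against 6.67, 7.17 and 8.01 in the others, and was 0.61 higher (adjusted p = 0.0431), and 0.26 (adjusted p = 0.492) without replicate 3. That call was lost in 14 of 27 fits with an array left out.

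In 129S1/SvlmJ 2 of 28 (7.14%) were higher, beside 3.54% of all probe sets. Trav19 read 4.52, 4.58 and 4.62, against 4.06, 4.20 and 4.70 in the others, a difference of 0.34 ± 0.09 (adjusted p = 0.0152). It missed the threshold without replicate 2 (0.33, adjusted p = 0.0817) or 3 (0.31, adjusted p = 0.101). Trav1, the alpha segment of mucosal-associated invariant T cells, read 4.96, 5.28 and 4.87, against 4.37, 4.74 and 5.06. Its difference of 0.33 (adjusted p = 0.0498) was 0.21 (adjusted p = 0.451) without replicate 2, and the call was lost in 20 of 27 such fits. In C3H/HeJ 1 of 28 (3.57%) was higher, beside 4.18%. Trav13n-4, a member of a set of near-identical duplicated alpha segments, read 4.09, 4.87 and 3.30 in C3H/HeJ, against 3.02, 3.43 and 3.93. Its difference of 0.66 (adjusted p = 0.0489) was lost in 21 of 27 fits with an array left out, and without replicate 2 it was 0.26 (adjusted p = 0.585). Both beta segments stayed uncalled, Trbv1 with differences of -0.11 to 0.13 and Trbv4 with -0.43 to 0.61.

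Of 17 T cell markers at most 2 were called in either direction in any strain, and the list medians ran from -0.13 in A/J to 0.05 in BALB/cJ. Of 3 T cell receptor constant genes 1, Trgc4 of the gamma chain, was called, lower in A/J and C57BL/6J (list medians -0.47 and -0.50) and higher in C57L/J and KK/HlJ (0.42 and 0.51). In MRL/MpJ 2 of 7 thymocyte markers were higher (list median 0.14). Their part in the Trav differences was not tested.

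Much of the variation in immunoglobulin segments lay between mice of a strain. The median within-strain SD, pooled over the 9 strains, was 0.41 for the immunoglobulin segments, 0.19 for the T cell receptor segments and 0.13 for all named probe sets. It was above 0.5 for 28 of 70 immunoglobulin segments (40%), for 1 of 28 T cell receptor segments (3.57%) and for 0.84% of all probe sets. The median share of the variance that lay between strain means was 46.2% for the immunoglobulin segments, 33.4% for the T cell receptor segments and 47.5% for all probe sets, where 9 strains with no difference would give 30.8% on average. The highest median SD over the 70 was in C57L/J (0.40) and the lowest in 129S1/SvlmJ (0.17).

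**Figure D4:**
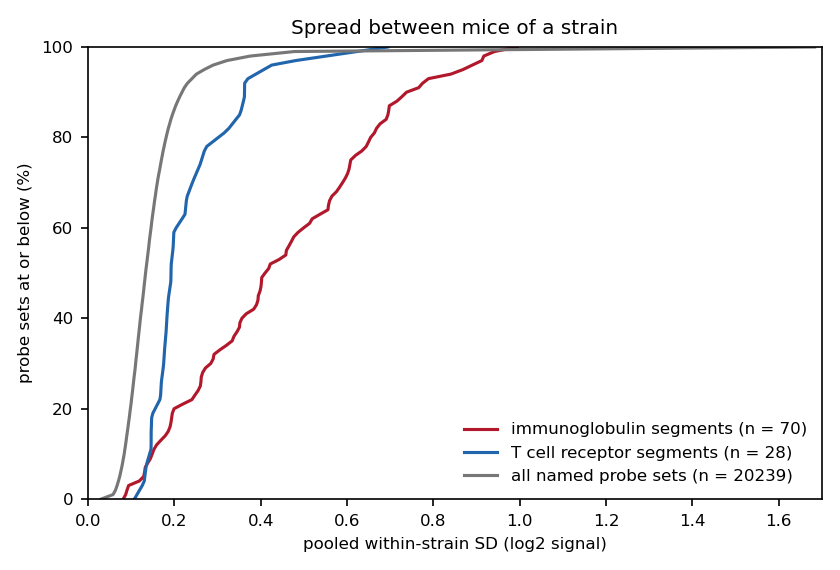
Cumulative share (%) of probe sets with a pooled within-strain SD (log2 signal) at or below the value on the horizontal axis, for immunoglobulin segments, T cell receptor segments and all named probe sets. The immunoglobulin curve lies to the right, with a median of 0.41 against 0.19 and 0.13.

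A signal at least 1 above the mean of the other 2 mice of its strain occurred in at least 1 strain for 43 of 70 immunoglobulin segments (61.4%) and 4 of 28 T cell receptor segments (14.3%), beside 2.81% of all named probe sets. C3H/HeJ replicate 2 had 16 such immunoglobulin segments, beside 1.17% of all probe sets. C57L/J replicate 2 had 13, beside 0.133%. MRL/MpJ replicate 3 and BALB/cJ replicate 2 had 9 each, beside 0.217% and 0.104%, and A/J replicate 1 had 8, beside 0.183%. In the other direction, C57L/J replicate 1 had 16 immunoglobulin segments at least 1 below the mean of its strain mates, beside 0.232% of all probe sets, MRL/MpJ replicate 1 had 9, beside 0.188%, and C3H/HeJ replicate 3 had 8, beside 0.469%. In C57BL/6J replicates 2 and 3 there were 0, beside 0.0148% and 0.0296%.

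In MRL/MpJ replicate 3 Ighv8-5 read 7.70, beside 2.86 and 2.66 in its strain mates. That SD of 2.85 was the highest of all named probe sets in MRL/MpJ. Over the other strains Ighv8-5 stayed near background, with strain means of 2.65 to 3.28. The pooled SD of Ighv8-5 was 0.99, of Iglv2 0.92 and of Ighv1-84 0.91, the highest of the 70. Without MRL/MpJ replicate 3 it was 0.30 for Ighv8-5 and 0.26 for Ighv1-84. In C3H/HeJ replicate 2 Igkv10-96 read 7.65, beside 5.68 and 4.06, and in C57L/J replicate 2 Igkv12-44 read 7.72, beside 4.84 and 4.55. In A/J replicate 1 Iglv2 read 7.70, beside 5.96 and 4.95. Ighv3-8 was high in 2 strains, at 5.83 in A/J replicate 1, beside 3.23 and 3.41, and at 5.88 in C57L/J replicate 2, beside 3.69 and 3.37. Among T cell receptor segments, Trav14d-3-dv8, an alpha segment that can also serve delta chains, read 6.16 in MRL/MpJ replicate 1, beside 3.57 and 2.97. It had the highest pooled SD of the 28, 0.69, followed by Trbv4 with 0.43 and Trav13n-4 with 0.36.

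**Figure D5:**
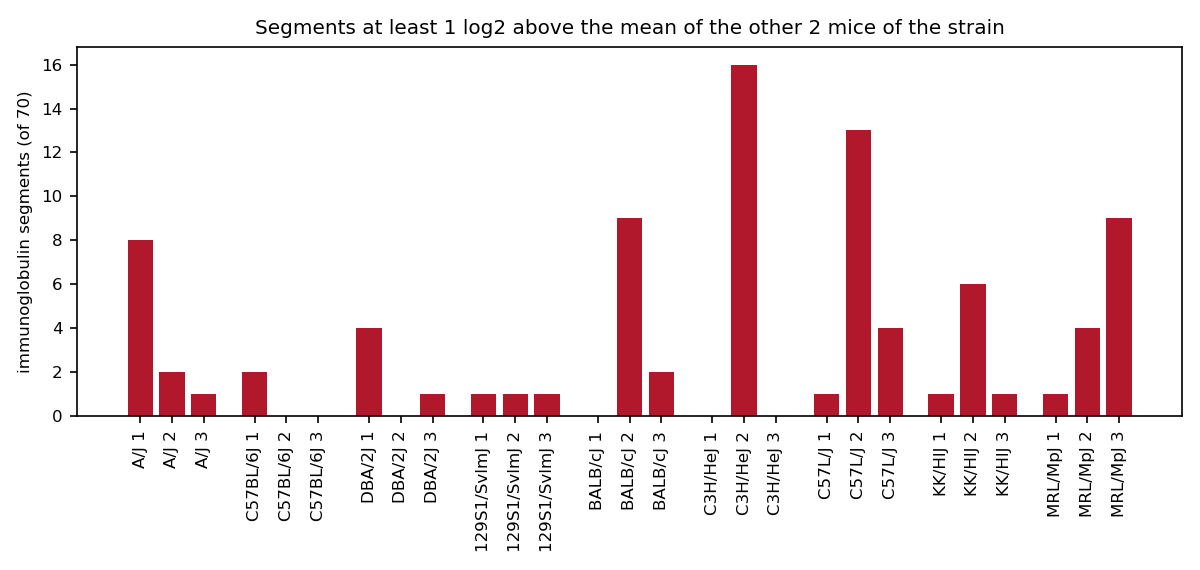
Number of the 70 immunoglobulin segments (vertical axis) whose log2 signal in a mouse was at least 1 above the mean of the other 2 mice of its strain, for each of the 27 mice. C3H/HeJ replicate 2 has 16 and C57L/J replicate 2 has 13, and several mice have 0.

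Marker lists moved with some of these mice and not with others. The median of 14 B cell markers, relative to the all-array mean, was 0.59 in BALB/cJ replicate 2, 0.20 in C3H/HeJ replicate 2, -0.08 in C57L/J replicate 2 and -0.27 in MRL/MpJ replicate 3. The median of 10 plasma cell markers was 0.20, 0.13, -0.01 and 0.01 in the same mice. The median of 10 constant region genes was -0.14, 0.12, 0.81 and 0.26. Jchain itself read 8.07 in C3H/HeJ replicate 2, beside 5.68 and 5.84 in its strain mates. Their part in the spread was not tested.

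By adenoma class the unit was the strain, with 3 mice averaged. Between the 7 strains of increased and the 2 of decreased severity, limma called 0 of 70 immunoglobulin and 0 of 28 T cell receptor segments, beside 0.00988% of all named probe sets. At an unadjusted p under 0.05 there were 14 immunoglobulin segments (8 higher, 6 lower in the increased class) and 6 T cell receptor segments, all lower, beside 7.04% of all probe sets. The strain means of the classes did not overlap for 13 immunoglobulin segments (18.6%; 10 higher) and 4 T cell receptor segments (14.3%; all lower), beside 6.69%. The decreased class consists of KK/HlJ and MRL/MpJ, so these counts share their arrays with the strain comparisons above. Of the segments without overlap, only Igkv6-17 and Ighv1-43 were called in KK/HlJ against the other 8 strains, and only Igkv4-57 and Trav13-3 in MRL/MpJ. What lies behind the counts was not tested.

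Igkv4-57 averaged 6.22 ± 0.26 (SD) over the 7 strains of increased severity, against 5.39 in KK/HlJ and 4.95 in MRL/MpJ. The classes did not overlap, and the difference was 1.05 ± 0.18 (SE; adjusted p = 0.284). Igkv5-45 averaged 2.95 ± 0.11 in the increased class, against 3.51 and 3.46 in the decreased strains (difference -0.54, adjusted p = 0.218), and its highest single mouse read 4.32. Trav13-3 averaged 7.13 ± 0.12 in the increased class, against 7.61 in KK/HlJ and 7.80 in MRL/MpJ (-0.58, adjusted p = 0.24). Iglv2 differed by 1.76 (adjusted p = 0.58) with overlap, since MRL/MpJ, at 5.31, lay within the range of the increased strains. Igkv6-17 (0.80, adjusted p = 0.521) was higher and Igkv4-62 (-0.82, adjusted p = 0.58) lower in the increased class by values that did not pass. Among the alpha segments the same held for Trav13d-4 (-0.47, adjusted p = 0.521), Trav7-6 (-0.46, adjusted p = 0.586), Trav8d-2 (-0.21, adjusted p = 0.623) and Trav12-2 (-0.14, adjusted p = 0.696). With MRL/MpJ left out Igkv6-17 (1.23, adjusted p = 0.0182) and Ighv1-67 (-1.52, adjusted p = 0.00618) were called, beside 0.262% of all probe sets, and with KK/HlJ left out Igkv2-112 (-1.06, adjusted p = 0.00611), beside 0.0544%. Each of these then sets 7 strains against 1.

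Between the 3 strains of increased and the 6 of decreased frequency 0 segments of either class were called, as were 0% of all named probe sets. At an unadjusted p under 0.05 there were 4 immunoglobulin segments, all lower in the increased class, and 5 T cell receptor segments, 4 lower, beside 7.7%. The strain means of the classes did not overlap for Igkv8-16, Ighv16-1, Trav7-5 and Trav13-3, which is 2 segments of each class, beside 3.92% of all probe sets. Igkv4-62 averaged 3.25 ± 0.20 in the increased class and 3.98 ± 0.39 in the decreased class (SD, n = 3 and 6 strains), a difference of -0.73 ± 0.21 (SE; adjusted p = 0.647). Trav7-1 averaged 3.12 ± 0.14 in the increased class and 3.33 ± 0.09 in the decreased class, a difference of -0.21 at the level of background. The other segments with the smallest p were Igkv8-16 (-0.34), Ighv1-42 (-0.30), Igkv6-20 (-0.49), Trav7-5 (0.14), Trav13-3 (-0.37), Trav13d-4 (-0.32) and Trav1 (-0.22), all with an adjusted p of 0.647.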

How the data were processed

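The deposited table holds log2 signal, 1 probe set per gene, from Affymetrix Mouse Gene 1.0 ST arrays. The authors processed the arrays with affy, per the submitters' processing notes, and its version and normalization are not given in the sources used here. Replicates are separate mice. The values were used as deposited. A difference among strains, in strain pairs and of a strain from the mean of the other 8 was tested with limma 3.58.1 in R 4.3.3 (lmFit and eBayes), and adenoma classes on the 9 strain means, with Benjamini-Hochberg adjustment over the 20239 named probe sets. In the strain fits all strains share 1 estimate of the spread of a probe set. Named segments were those with the smallest p, most pair calls, largest called difference per strain or largest pooled SD, and others were named after their values were seen. The members and lists were chosen with earlier results of these data known. Of 2 lists of beta segments (9 and 11 genes) 0 members were measured. Replicate numbers were not treated as pairing mice. The median correlation was -0.00013 in the 108 same-number pairs, 24 of them over 0.1, and 0.0025 in different-number pairs. Of 27 arrays 10 were closest to their own number. Array number limits precision. The fits were tested on simulated data.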

Additional observations from a re-analysis of the deposited data

Results flagged for a closer look

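Among the 6 strains of decreased adenoma frequency the mean of Ighv1-43 was 2.97 in KK/HlJ, against 2.70 in the nearest strain, a gap of 0.742 of the whole range. It was the only 1 of 20 groups in which a strain stood this far from the others, and chance gives about 1 in 20. The level lies within the range of the Y-linked genes.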

How the results depend on the processing

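Of the 579 counts and medians recomputed, 523 were scored as the same and 56 as moved. Of the 1995 values of named segments recomputed, 1930 were scored as the same, 50 lost a call at the adjusted p and 15 gained one. The scoring was wide. Counts were the same within 1.5 times, and SDs when they moved by less than the SD of their values over the strains. Tested values were the same when the call stood, whatever their size, or when an uncalled difference changed sign. The SD of Ighv8-5, 0.99 with all arrays and 0.30 without MRL/MpJ replicate 3, was thus scored as the same. Counts, F statistics and SDs have no sign, so for them a change of direction could not be seen. With dim probe sets left out, 24 immunoglobulin and 9 T cell receptor segments stayed in the test, among 15179 probe sets. Of the 24, 13 were called by F test and 12 in pairs. Against the other 8 strains there were 11 higher and 7 lower immunoglobulin calls, 8 of them higher in C57L/J and 3 lower in KK/HlJ. Of the 9, 1 was called by F test, and 2 T cell receptor calls were higher. Shares of all probe sets were not computed for this setting. Without the arrays labelled C57L/J the immunoglobulin counts were 14 by F test, 15 in pairs and 12 higher. T cell receptor calls were then 3 higher. The T cell receptor F count was 1 with median centring and 2 with array weights, which also gave 2 lower. In pairs 7 T cell receptor segments were called with no minimum difference, and against the other 8 there were 2 higher with an intensity trend and robust prior. Leaving out the minimum loosens the rule for every probe set. Beside the 27% given above for the F test without the arrays labelled C57L/J, no share of all probe sets is given for these settings.

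With 1 array left out, immunoglobulin counts ran from 19 to 29 by F test, 23 to 29 in pairs, 16 to 33 higher, 9 to 16 lower, 7 to 25 higher in C57L/J and 3 to 8 lower in KK/HlJ. T cell receptor counts ran from 0 to 2, 0 to 3, 2 to 6 and 0 to 1. Shares of all probe sets are given above for few of these fits, so these ranges are not set against a background. With an array or strain left out, severity gave 0 to 2 immunoglobulin calls and 0 T cell receptor calls, and frequency 0 of either. With the replicate number as a block the F counts were 22 immunoglobulin and 1 T cell receptor segments, and other calls kept their counts within 1.5 times. The causes were not tested.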
